A study of Homo sapiens and Mus musculus with 10 samples.

Results

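Accessible chromatin was described at 9 early lineage regulators in mouse embryonic stem cells (mESC): T, Eomes, Mixl1, Gsc, Sox17, Cdx2, Hand1, Neurog2 and Olig2. They were taken by name from 21755 protein-coding genes, and the rule that lists them uses no measured value, although earlier results of these data were known when they were chosen. Bulk ATAC-seq, which marks open chromatin by where the Tn5 transposase inserts adapters, was deposited as 1 peak list for each of 10 libraries, 2 from each of 5 cell lines. The mESC were grown without feeder cells in a defined medium with leukemia inhibitory factor, N-2 and B-27, and no strain, clone or passage was given. The human lines, used here for comparison, were GM12878 (an EBV-transformed B-lymphoblastoid line), HEK293T (embryonic kidney cells with SV40 large T antigen), HFF1 (foreskin fibroblasts) and K562 (a chronic myeloid leukaemia line), all grown in serum. No group carried a treatment or an engineered allele named in the labels, and the 2 replicates of a line were not stated to come from separate cultures.

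These genes encode transcription factors that are switched on as the early embryo leaves pluripotency. T (Brachyury), Eomes, Mixl1 and Gsc act in the primitive streak and the mesoderm and endoderm that arise from it, Sox17 in endoderm, Cdx2 in trophectoderm and the posterior body axis, Hand1 in trophoblast giant cells and the heart, Neurog2 in neurogenesis and Olig2 in motor neuron and oligodendrocyte precursors. In embryonic stem cells, CpG-rich promoters of such genes are textbook examples of chromatin that carries active and repressive histone marks together while little transcript is made. An ATAC-seq peak reports that DNA is open and says nothing by itself about transcription.

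The mESC lists held 138349 and 142194 peaks on the autosomes and X, which merged into 155907 regions, of which 120635 (77.4%) had a peak in both libraries. Between 41651 (HEK293T) and 103736 (HFF1) regions were in both libraries of a human line. All 12 of 12 naive stem cell markers, among them Pou5f1, Sox2, Nanog and Zfp42, had a promoter peak in both mESC libraries, as did 73.1% of all protein-coding genes. Of 8 fibroblast or feeder markers, 5 had a promoter peak in both libraries, and Col3a1, Postn and Lum had none in either. Since 62.5% is near the share of all genes, and regulators of other lineages also had promoter peaks, these counts do not tell the cell type.

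All 9 regulators had a promoter peak, a peak within 1 kb of an annotated start site, in both mESC libraries. The share of all protein-coding genes was 73.1%, so a promoter peak was the usual state of a gene in these lists. The peaks were low in the authors' fold, the ratio of the summit to the local background of that library: 7 of the 9 lay below the 20th percentile of all promoter peaks in both libraries. No test was made of this, since the libraries of a single line hold no contrast.

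Among the primitive streak genes, T (chr17:8434423-8442496, plus strand, GRCm38) had promoter folds of 4.68 in replicate 1 and 4.13 in replicate 2, which are the 6.01 and 3.62 percentiles. The summit pileup, the number of tags stacked at the highest point, was 45 and 42. The T peak was broad and shallow: it spanned 1415 bp in replicate 1, while replicate 2 resolved it into peaks of 1036 and 316 bp, and a weaker peak upstream of it had folds of 3.27 and 3.00. Eomes (chr9:118478212-118486132, plus strand) had folds of 6.07 and 4.86 with pileups of 88 and 65. Its summits lay 1079 and 1045 bp downstream of the outermost start, inside a coding exon and near an internal start. Eomes was the member whose replicates differed most in pileup.

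Mixl1 (chr1:180693043-180697034, minus strand), a homeobox gene induced by Nodal signals, had the highest promoter folds of the 9, at 9.90 and 7.76. These were the 58.7 and 34.3 percentiles, so even this peak was ordinary among all promoters. Gsc (chr12:104471209-104473330, minus strand), a homeobox repressor of the organizer, had folds of 4.85 and 4.80 and pileups of 67 and 63, with summits 18 bp inside and 41 bp before the start. The 2 libraries gave nearly equal values for Gsc.

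Sox17 (chr1:4490931-4497354, minus strand) had folds of 4.31 and 4.63 and pileups of 75 and 77. Its peak was the widest of the members, at 2195 and 2135 bp, and it did not lie at the outermost start. It covered internal start sites and the exons after them, 4594 and 4831 bp downstream of the outermost start, and no peak lay within 1 kb of that start in either library. Counted at outermost starts only, 8 of the 9 genes had a promoter peak, against 68.5% of all genes.

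Cdx2 (chr5:147300805-147307270, minus strand) had folds of 4.23 and 4.21 and pileups of 58 and 56. Hand1 (chr11:57828705-57832818, minus strand) had the lowest folds, 3.61 and 3.89, which are the 1.54 and 2.56 percentiles, with pileups of 42 and 44. Both trophoblast regulators thus had weak promoter peaks that were almost equal in the 2 libraries. The strongest Hand1 peak was narrow, at 267 and 194 bp, and a second called region lay over its coding exon.

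Of the neural genes, Neurog2 (chr3:127633135-127635631, plus strand) had folds of 7.65 and 7.32 and the highest pileups of the 9, 97 and 92. Its start site was flanked by 3 separate regions, and the highest was not at the start but over the coding exon, 1153 and 1154 bp downstream. The region at the start itself had folds of only 3.03 and 3.23, and the one upstream 5.36 and 5.18. Olig2 (chr16:91225457-91228677, plus strand) had folds of 4.07 and 4.20 and pileups of 70 and 73, with summits 110 and 100 bp before the start.

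The promoter sequences below show what these regions look like: each is the 200 bases around the region's summit on the gene's strand, read from GRCm38.p6, and capitals mark a match to one of the searched motifs. The Eomes and Mixl1 summits lie in coding exons and the Neurog2 region lies upstream of its start. They are shown because they are rich in CpG, with 28, 23 and 24 CpG in 200 bases.
Eomes, chr9:118479191-118479390, no match: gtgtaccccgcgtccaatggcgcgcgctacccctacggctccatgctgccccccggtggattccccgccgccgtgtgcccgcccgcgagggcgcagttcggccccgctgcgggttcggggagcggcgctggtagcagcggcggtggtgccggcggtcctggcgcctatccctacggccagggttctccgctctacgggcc
Mixl1, chr1:180696598-180696797, E-box CAGCTG in capitals: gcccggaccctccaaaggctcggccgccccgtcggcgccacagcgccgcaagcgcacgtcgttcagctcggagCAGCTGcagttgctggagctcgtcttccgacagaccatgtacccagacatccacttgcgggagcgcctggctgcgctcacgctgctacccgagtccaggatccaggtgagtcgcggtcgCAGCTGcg
Neurog2, chr3:127632628-127632827, E-box CAGCTG and SOX motif ACAATAG in capitals: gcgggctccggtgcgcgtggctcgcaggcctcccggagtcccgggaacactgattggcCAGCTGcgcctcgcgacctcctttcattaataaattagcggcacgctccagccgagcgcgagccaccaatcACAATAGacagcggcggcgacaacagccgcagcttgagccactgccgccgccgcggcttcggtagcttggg

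As a median, the 9 promoters differed from other promoters more in local background than in summit. The median over members of the mean fold was 4.47 against 9.14 over all genes with a promoter peak in both libraries. The median summit pileup was 71.5 tags against 79.5, whereas the median local background was 12.7 tags against 7.41. T, Hand1 and Mixl1 departed from this in ways given below.

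Olig2 had the highest mean local background of the 9, at 16.5 and 16.6 tags (97.0 and 97.6 percentiles), and Sox17 followed at 16.6 and 15.8 tags. Mixl1 had the lowest background, 7.38 and 8.03 tags (48.8 and 58.7 percentiles). Only T and Hand1 were also below the 20th percentile in pileup in both libraries: they lay at the 14.8 and 14.2 percentiles and at the 12.8 and 15.6 percentiles. T had a background at the 64.7 and 72.0 percentiles. Background and summit were recovered from the deposited fold and p-value of each peak, and whether tags of neighbouring peaks entered that background was not tested.

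Peaks covered more of the 10 kb around the members' starts than around most genes. Within 5 kb on each side of the outermost start, the members had a median of 1561 and 1722 bp under peaks in the 2 libraries, against 1149 and 1129 bp for all genes with a promoter peak in both. For all genes, with or without a promoter peak, the medians were 971 and 956 bp. Cdx2 (2249 and 1990 bp) and Gsc (2048 and 2011 bp) were highest, above the 97th percentile of all genes in both libraries. Hand1 (1223 and 1006 bp) and Mixl1 (1119 and 1082 bp) were lowest, and Eomes differed most between the libraries (1413 and 1744 bp). Mixl1 in both libraries and Hand1 in replicate 2 were below the medians of genes with a promoter peak.

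**Figure D1:**
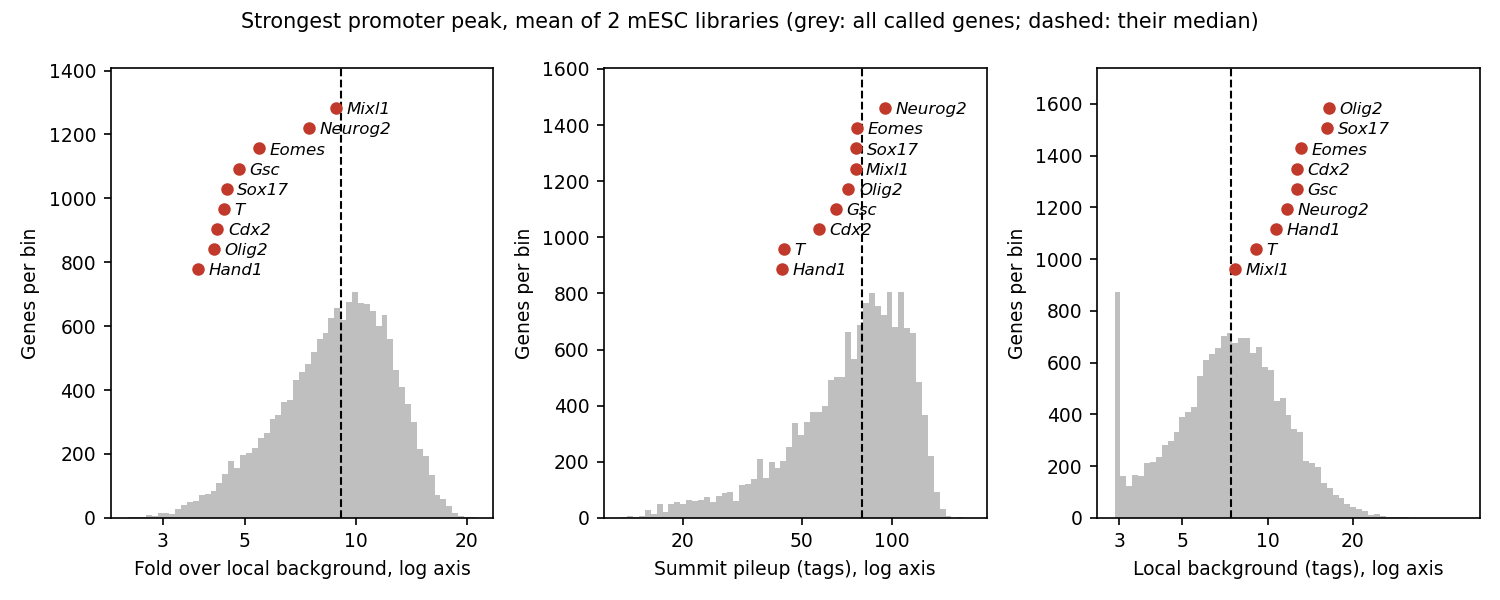
Strongest promoter peak of each gene, as the mean of the 2 mESC libraries, on log axes: fold over local background (left), summit pileup in tags (middle) and local background in tags (right). Grey bars are all genes called in both libraries, dashed lines their medians (9.14, 79.5 and 7.41), and red points the 9 members, stacked by rank only. All 9 points lie left of the median fold and right of the median background.

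Ranks among other peaks gave a less extreme view of the same promoters. Set against every peak of the list in place of promoter peaks, the median percentile of the members' folds was 28.2 in place of 6.15. Set by pileup among promoter peaks it was 36.4. When each list was limited to its 50000 peaks of highest −log10 p, promoter peaks in both libraries were left at 5 of the 9 members (Eomes, Mixl1, Gsc, Sox17 and Neurog2) and at 61.9% of all genes, and T, Cdx2, Hand1 and Olig2 were lost.

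Each gene sat in a neighbourhood of open regions. Within 100 kb of the gene bodies, 171 regions were present in both libraries. The count was 26 for T, 25 each for Cdx2 and Hand1, 23 for Eomes, 22 for Gsc, 15 each for Neurog2 and Olig2, 14 for Mixl1 and 6 for Sox17. The median of 22 lay near the 20 of all protein-coding genes, and above the 17 of the 8707 genes no longer than 12 kb. Per 100 kb of window the members had a median of 10.9 regions and all genes 8.20. On that scale Mixl1, Olig2 and Neurog2 (41.1, 44.5 and 44.7 percentiles) and Sox17 were below the median of all genes. The other members were above it, at most at the 77.4 percentile.

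Sox17 was the sparse locus, with 2.91 regions per 100 kb (19.4 percentile), and T the densest, with 12.5 (77.4 percentile). Of the 171 regions, 13 lay at a member's own start, 17 at the start of another protein-coding gene and 141 elsewhere, here called distal. By distance from a member's start, 30 lay within 10 kb, 68 at 10 to 50 kb and 73 farther away. Per 10 kb and locus that was 1.67, 0.944 and 0.811 regions, taking these spans as 20, 80 and 100 kb. The nearest span includes all 13 regions at the members' own starts, so its higher value does not show denser distal regions near the genes. Over the 9 loci together, 87 regions lay upstream and 84 downstream, while single loci ranged from 12 and 3 at Olig2 to 7 and 15 at Gsc. For 80 of the 171, the nearest protein-coding start was the member's own.

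**Figure D2:**
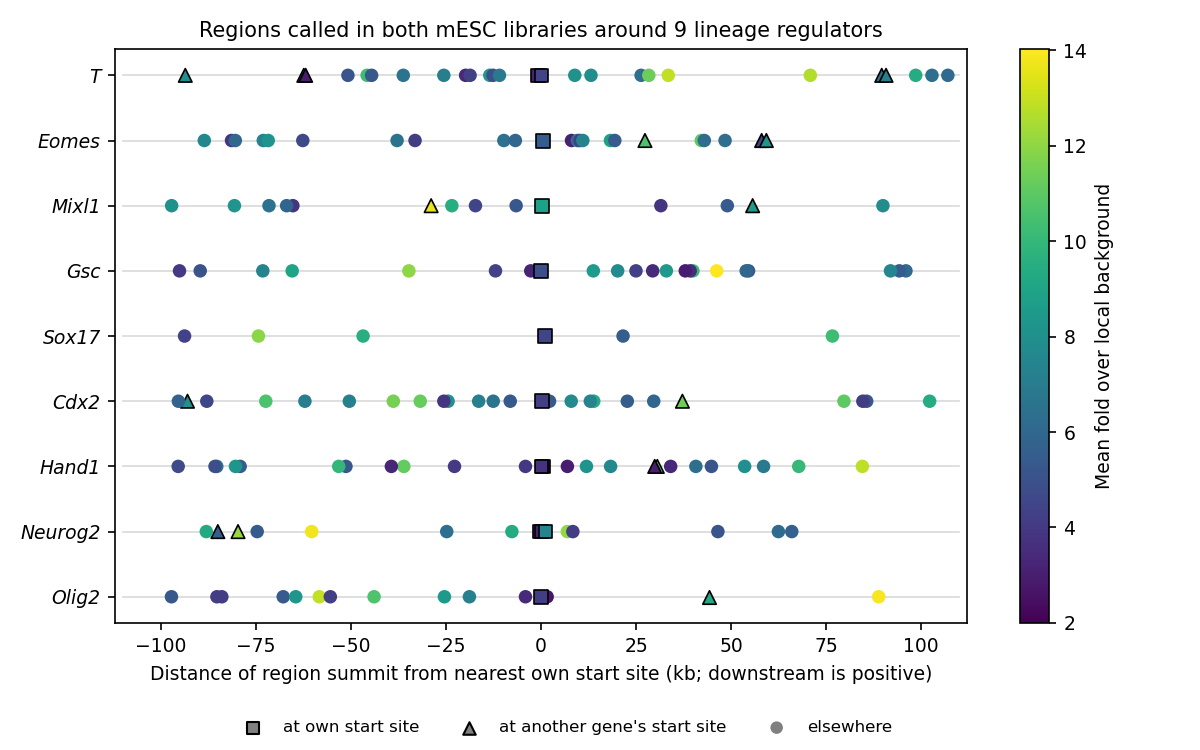
Regions called in both mESC libraries within 100 kb of each gene body, placed by the distance of the summit from the nearest own start (kb, downstream positive) and coloured by mean fold. Squares are at the gene's own start, triangles at the start of another protein-coding gene, circles elsewhere. The strongest square of each gene has a mean fold between 3.75 (Hand1) and 8.83 (Mixl1). Each locus has at least 1 circle of higher mean fold, and the highest circle ranges from 9.45 at Mixl1 to 14.02 at Gsc.

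At least 1 distal region had a higher mean fold than the promoter at each of the 9 loci. In all, 102 of the 141 distal regions (72.3%) exceeded the strongest own promoter peak in mean fold. Over 15918 genes the share of distal regions above the promoter was 24.6%, although 76.6% of those genes had at least 1 such region. This share is measured against the promoter fold, whose median was 4.47 at the members and 9.14 over all genes. The folds of the members' distal regions were not compared with those of all distal regions. By summit pileup the order changed: 25 of 141 member regions (17.7%) exceeded their promoter, at 6 of 9 loci, against 11.8% of regions and 46.3% of genes overall. No distal region exceeded the promoter in pileup at Sox17, Neurog2 or Olig2. Counting only regions above the promoter in both libraries left 91 regions (64.5%) at 8 loci by fold and 19 (13.5%) at 5 loci by pileup. Mixl1 dropped out by fold and Eomes by pileup, since in replicate 1 no distal region there exceeded the promoter.

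At T, the distal region with the highest fold lay 33.5 kb downstream, outside any protein-coding gene, with folds of 11.80 and 13.99 and pileups of 71 and 81. Another T region 28.4 kb downstream had folds of 10.58 and 12.03, and one 70.9 kb downstream had 12.27 and 13.02. These 3 regions exceeded the T promoter in fold and in pileup in both libraries. Upstream, T shares its window with T2, an adjoining gene, whose body held most of the upstream regions.

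The highest distal fold at Eomes was 42.2 kb downstream in an intron of Golga4 (12.3 and 9.85). The tallest Eomes region by pileup was a different one, 71.8 kb upstream (82 and 81 tags), and with its neighbour at 73.1 kb (75 and 73 tags) it lay at Platr11, a long non-coding RNA gene. Closer to the gene, 4 regions between 8.01 and 11.0 kb downstream lay in or near the antisense transcript Gm33460. Gsc had the highest mean distal fold of the 9 loci, with 13.97 and 14.07 at 46.2 kb downstream, with pileups of 79 and 80. At Mixl1 only 1 of 11 distal regions exceeded the promoter in mean fold, 23.5 kb upstream with folds of 9.89 and 9.01. In replicate 1 it was just below the promoter (9.89 against 9.90) and in replicate 2 above it (9.01 against 7.76).

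At Sox17 the strongest distal region lay 74.4 kb upstream, with folds of 12.7 and 11.1 and pileups of 62 and 57. Sox17 was also the nearest protein-coding start to it. At Cdx2 the highest distal mean fold lay 38.9 kb upstream in an intron of Flt3 (12.1 and 10.9), and 20 of its 22 distal regions exceeded the promoter in fold. Inside Cdx2, a region in its intron 2.23 kb from the start had folds of 4.70 and 5.89 and pileups of 73 and 87, both above those of the Cdx2 promoter. Hand1 had its highest fold 84.6 kb downstream in an intron of Galnt10 (13.98 and 11.67).

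Neurog2 had its highest distal fold 60.4 kb upstream in an intron of Zgrf1 (13.3 and 14.3). Another of its regions, 88.1 kb upstream in an intron of Larp7, lay within 1 kb of the microRNA genes Mir302a, Mir302b, Mir302c, Mir302d and Mir367, a cluster known for its expression in pluripotent cells. That region had folds of 9.78 and 8.83 and pileups of 61 and 55, in a window counted for Neurog2 only by distance. At Olig2 the highest fold was 88.9 kb downstream (14.1 and 13.7), beyond Olig1, its paralogue, whose own promoter region had folds of 8.70 and 9.73. In all, 16 of the 141 distal regions (11.3%) had the start of a non-coding gene or pseudogene within 1 kb, against 4.90% of all 97922 distal regions. Several of the 16 share 1 such gene, as at Platr11 and Gm33460.

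Distal sequences are shown for regions that the values above turn on, again as 200 bases on the strand of the named gene with motif matches in capitals. Of the searched motifs, the T region at 33.5 kb matched only the E-box and the one at 28.4 kb only the SOX motif. The Sox17 region is as CpG-rich as the promoters, with 26 CpG and a GC content of 71.5%. The Neurog2 region is the one at the microRNA cluster and has 3 CpG.
T at 33.5 kb, chr17:8468802-8469001, E-box CAGCTG in capitals: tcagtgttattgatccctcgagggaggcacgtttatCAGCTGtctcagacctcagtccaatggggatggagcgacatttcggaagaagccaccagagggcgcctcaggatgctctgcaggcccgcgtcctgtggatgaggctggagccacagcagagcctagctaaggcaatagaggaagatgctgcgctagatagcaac
T at 28.4 kb, chr17:8463664-8463863, SOX motif ACAATGG, on the other strand, in capitals: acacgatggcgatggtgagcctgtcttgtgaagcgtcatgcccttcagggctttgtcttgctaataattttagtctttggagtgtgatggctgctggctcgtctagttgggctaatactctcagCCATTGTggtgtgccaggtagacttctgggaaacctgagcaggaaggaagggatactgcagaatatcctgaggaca
Sox17 at -74.4 kb, chr1:4571655-4571854, SOX motif ACAATGG and GATA motif AGATAA, the latter on the other strand, in capitals: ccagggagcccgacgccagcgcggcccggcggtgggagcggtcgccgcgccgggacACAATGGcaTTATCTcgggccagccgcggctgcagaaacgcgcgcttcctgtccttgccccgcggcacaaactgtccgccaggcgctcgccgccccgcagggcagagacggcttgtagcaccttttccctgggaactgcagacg
Cdx2 intron, chr5:147304936-147305135, TCF motif CTTTGAT and SOX motif ACAATGG, the latter on the other strand, in capitals: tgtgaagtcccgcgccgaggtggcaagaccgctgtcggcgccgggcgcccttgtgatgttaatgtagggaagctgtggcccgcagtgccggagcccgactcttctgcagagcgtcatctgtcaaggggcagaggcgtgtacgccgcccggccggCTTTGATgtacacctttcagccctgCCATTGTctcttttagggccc
Neurog2 at -88.1 kb, chr3:127544915-127545114, no match: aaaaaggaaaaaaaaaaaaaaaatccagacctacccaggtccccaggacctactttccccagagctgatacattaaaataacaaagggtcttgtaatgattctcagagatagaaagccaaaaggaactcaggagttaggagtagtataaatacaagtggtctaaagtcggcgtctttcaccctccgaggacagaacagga

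For the SOX, GATA and E-box motifs, matches in the members' distal regions were about as common as in distal regions genome-wide. In 300 bp around the summit, on both strands, the SOX motif (ACAATGG or ACAATAG) was found in 14 of 141 regions (9.93%) against 10.1% of all 97922 distal regions. The GATA motif (AGATAA) was found in 16 (11.3%) against 11.3%, and the E-box (CAGCTG) in 30 (21.3%) against 20.6%. The T-box motif (AGGTGTGA), the element that T and Eomes bind, was found in 4 (2.84%) against 1.88%. The OCT motif (ATGCAAAT) was found in 3 (2.13%) against 3.46%, all 3 in the Cdx2 window. CTCF letters (AGGGGGCGC or AGGTGGCAG) were found in 8 (5.67%) against 3.66%. The KLF/SP motif (GGGCGTG or GGGCGGGG) was found in 9 (6.38%) against 9.28%, the TCF motif (CTTTGAT) in 9 (6.38%) against 5.41% and the FOXH1 motif (AATCCACA) in 2 (1.42%) against 1.24%. The rarer motifs thus differed in either direction, on counts of 9 or fewer. For every motif only the exact letters given were searched, so sites in other forms, CTCF sites among them, were not counted.

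As a median, the 13 own-promoter regions, which come from 9 genes, were richer in CpG than promoter regions at large. Their median observed over expected CpG ratio was 0.813 against 0.644 for all 22713 promoter regions, and the median GC content 64.3% against 60.7%. The Cdx2 region (0.595) and the Hand1 regions (0.584 and 0.529) were below that 0.644. The KLF/SP motif was found in 2 of 13 regions (15.4%) against 32.5%, and the E-box in 4 (30.8%) against 18.9%. With 13 regions, 1 region is worth 7.69 percentage points. The ratio in 300 bp around the outermost start itself ranged from 0.285 at Eomes (30.1 percentile of all genes) to 0.943 at Gsc (84.7 percentile), so at Eomes the CpG-rich summit lay inside the gene and not at its outermost start.

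Other developmental lists looked like the 9 genes in their promoters. A promoter peak in both libraries was found at 14 of 15 other streak, mesoderm and endoderm regulators (Msgn1 had one in replicate 1 only), at 10 of 10 trophoblast regulators and at 12 of 12 neural regulators. Of 19 streak signals and their effectors, 17 had one, Fgf8 had one in replicate 2 only and Cer1, a secreted Nodal antagonist, had none in either. Among 11 genes for products of mature tissues the count was 4, below the 73.1% of all genes. Within that list, Ckm (20.6) and Apoa2 (14.9) had the most regions per 100 kb, and Hbb-bt (0.993) and Alb (2.32) the fewest.

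Median promoter folds below the 9.14 of all genes were found in every list, developmental or not. The median fold was 5.10 for the streak, mesoderm and endoderm regulators, 5.29 for trophoblast regulators, 6.14 for neural regulators and 5.94 for signals. It was 6.43 for the 4 tissue product genes with a promoter peak in both libraries and 7.53 for the 5 such fibroblast markers. It was 5.31 for the naive stem cell markers, whose median pileup was 102.5 tags and median local background 17.4. Pou5f1, picked out here after its values were seen, had folds of 3.78 and 3.52 on pileups of 188 and 173. A low fold was thus also found at a promoter with a pileup far above that of any of the 9 members.

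**Figure D3:**
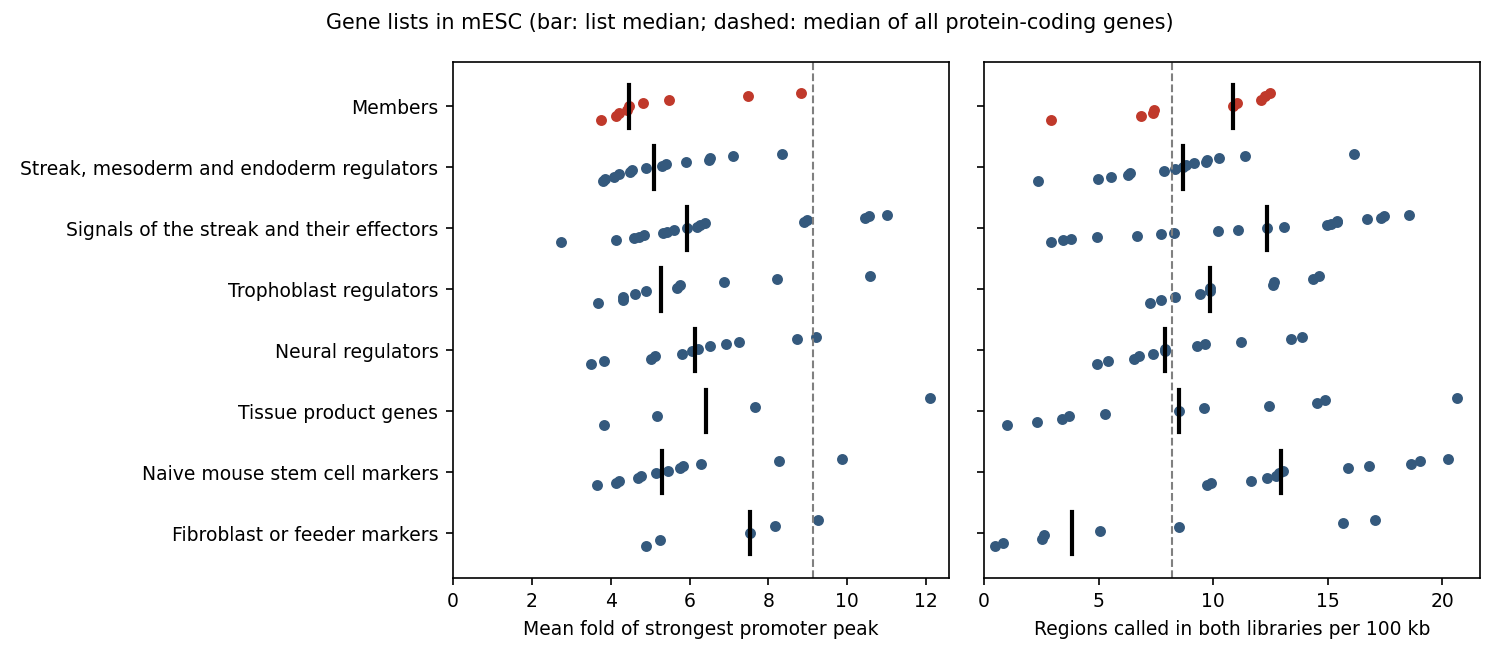
Mean fold of the strongest promoter peak (left, genes with a promoter peak in both libraries) and regions per 100 kb (right, all genes of a list) for each gene of 8 lists in mESC. Points are genes, black bars list medians and dashed lines the medians of all protein-coding genes (9.14 and 8.20). Members have a median of 4.47 on the left and 10.9 on the right, and every list median on the left is below the dashed line.

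The human counterparts were open at fewer promoters, and the number depended on the line. A promoter peak in both libraries was found at 7 of 9 in HEK293T (67.8% of all 19970 human protein-coding genes), 6 of 9 in HFF1 (76.2%), 3 of 9 in GM12878 (71.9%) and 2 of 9 in K562 (70.4%). HEK293T had the most although its lists were the shortest, with 52438 and 52137 peaks. Species, culture and cell type differ together between mESC and these lines and cannot be told apart. Folds are read within a library only.

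NEUROG2 had a promoter peak in all 8 human libraries, from 4.46 (K562, replicate 2) to 7.101 (HEK293T, replicate 2). MIXL1 had one in all but HEK293T replicate 2, and EOMES in all but the K562 pair. In GM12878 the EOMES peak was tall, with pileups of 112 and 111 and folds of 6.50 and 6.37. TBXT, CDX2 and OLIG2 had a promoter peak in HEK293T only among the human lines. There the folds were 9.44 and 9.29 for TBXT, 9.89 and 8.90 for CDX2 and 12.46 and 12.37 for OLIG2.

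GSC and HAND1 had promoter peaks in HEK293T and HFF1. The folds of GSC were 11.5 and 12.4 in HEK293T and 5.62 and 5.24 in HFF1, and those of HAND1 6.38 and 6.91, and 5.10 and 4.13. SOX17 had one in HFF1 only, with folds of 4.98 and 6.07. These HFF1 peaks were weak ones: limited to the 50000 peaks of highest −log10 p in each library, HFF1 was left with 1 of 9 (NEUROG2; 65.0% of all genes) and K562 with 0 of 9 (66.3%). At the same limit HEK293T had 7 of 9 (67.0%) and GM12878 2 of 9 (63.4%). The limit hardly shortened the HEK293T lists (52438 and 52137 peaks), whereas those of HFF1 held 127359 and 120344. The HEK293T count was thus nearly fixed in advance and does not show that its peaks were stronger.

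**Figure D4:**
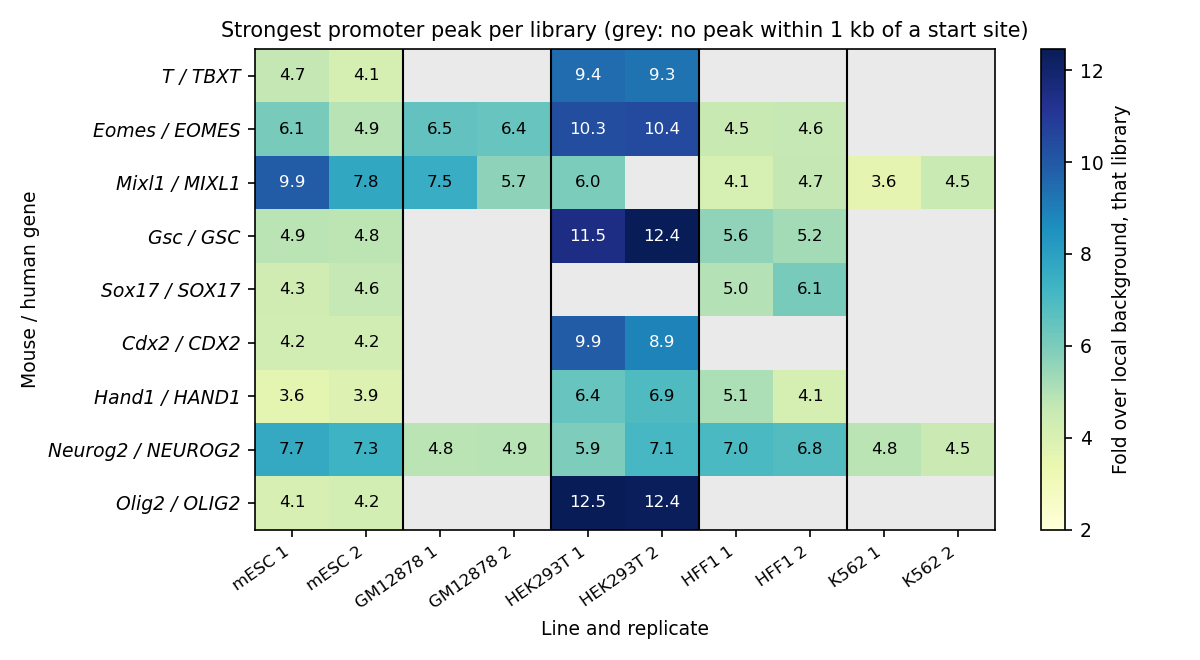
Fold of the strongest promoter peak in each library (columns, replicate number after the line) for each mouse gene or its human counterpart (rows); grey cells have no peak within 1 kb of a start. Colour and figures are folds over the local background of that library, so they are not compared in size between lines. All mESC cells are filled, from 3.61 to 9.90, and HEK293T has the most filled cells among the human lines.

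Around the counterparts, 76 regions were in both libraries in GM12878, 60 in HEK293T, 62 in HFF1 and 45 in K562, against 171 in mESC. Per 10000 regions of the line this came to 8.49, 14.4, 5.98 and 7.34, against 14.2 in mESC. On that scale HEK293T was close to mESC and the other 3 lines were lower. In HEK293T, HAND1 alone had 17 of the 60 regions, the 99.3 percentile of all genes per 100 kb of window. GSC had 5 regions in HEK293T, 3 in GM12878, 2 in HFF1 and 1 in K562, against 22 in mESC. The median per gene was below that of all human genes in GM12878 (7 against 13), HEK293T (5 against 6), HFF1 (6 against 14) and K562 (5 against 10), although per 100 kb of window HEK293T stood at 2.48 against 2.37.

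Patterns of promoter peaks were compared over 15715 genes with the same symbol in both species, with T paired to TBXT. T, Cdx2 and Olig2 shared their pattern, present in mESC and HEK293T and absent in the other 6 libraries, with only 50 genes (0.318%). By peak-covered bases within 5 kb of the start over the 10 libraries, the genes nearest to T were Sox3, Fut9 and Hs6st2, those nearest to Cdx2 were Ptf1a, Smoc2 and Fzd10, and those nearest to Olig2 were Nwd2, Fut9 and Galnt13. Gsc and Hand1 shared a pattern with 205 genes (nearest to Gsc: Adgrl3, Prima1 and Hoxd11; nearest to Hand1: Pcdh19, Cdo1 and Irx3). Sox17 shared its pattern of mESC and HFF1 with 207 (nearest: Trim17, Prok2 and Pcdhgb4). Eomes shared its with 289 (nearest: Tiam1, Spata18 and P3h2) and Mixl1 with 157 (nearest: Fes, Ifi35 and Cd44). The Neurog2 pattern, open in all 10 libraries, was that of 10042 genes (63.9%), with Mertk, Uba1 and Gpr137c nearest. A promoter peak in mESC alone was found for 525 genes (3.34%), and none of the 9 was among them.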

How the data were processed

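The authors deposited 1 narrowPeak list per library, with replicates not pooled. Per the submitters' processing notes, cutadapt 3.2, Bowtie2 2.4.2, Picard and MACS2 2.2.7.1 were used with the builds hg38 and mm10; settings, read shift and duplicate handling are not given in the sources used here. Each deposited peak has coordinates, a summit, a fold (a linear ratio to the local background), −log10 p, −log10 q and a score. The lowest deposited −log10 q was 2.00 to 2.05. The number of reads is not given.

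Only peaks on autosomes and the X were kept. Replicate peaks overlapping by at least 1 bp were merged, and a region or promoter was called when both replicates had a peak. Start sites came from GENCODE M21 and 44. The summit pileup and local background were solved from the deposited fold and −log10 p, assuming a pseudocount of 1 tag and a Poisson tail; all peaks (100%) were solved within a relative tolerance of 0.001. The lowest local background recovered for any peak was 2.91 and 2.86 tags in mESC and 0.465 to 2.43 in human libraries. A percentile is the share of genes (or peaks) with a lower value. Sequences were read with pysam 0.24.0. Pileup recovery, merging and promoter calls were tested on simulated data. No statistical test was made: the groups hold 2 libraries.

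The members and lists were chosen with earlier results of these data known. Named by rule were the members and counterparts, the listed genes without a promoter peak where 5 or fewer (otherwise the 2 with most and 2 with fewest regions per 100 kb), and the 3 genes nearest in log2(bp + 100). Nothing was fitted, dropped or imputed.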

Additional observations from a re-analysis of the deposited data

How the results depend on the processing

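No paired analysis was possible because the results come from no test. Alternatives to the window, the start sites, the peak thresholds and the replicates left 69 of 90 recomputed values within 1.5 times (counts) or within their error. For motif shares that error was a binomial interval over regions, which are not replicates. It is wide for the 13 own-promoter regions. Also among the 69 are promoter counts with a replicate left out, which can only stay or rise. Limited to 50000 peaks per library, promoters in both libraries fell from 9 to 5 in mESC (61.9% of all genes), from 6 to 1 in HFF1 (65.0%) and from 2 to 0 in K562 (66.3%), and the region count was 68 in mESC, 41 in GM12878, 19 in HFF1 and 27 in K562. With 50 kb on each side the regions numbered 99 in mESC, 41 in GM12878, 38 in HEK293T and 22 in K562. Counting only regions nearest to the gene's own start gave 80, 39, 38, 35 and 22 in mESC, GM12878, HEK293T, HFF1 and K562. The median percentile of the promoter folds was 6.15, against 28.2 among all peaks and 36.4 by pileup. In 200 bp in place of 300 bp, distal matches were 14.2% (E-box), 0% (FOXH1) and 6.38% (GATA), and the genome-wide shares fell as well, to 15.5%, 0.795% and 6.48%. Leaving out each replicate in turn gave 204 regions in mESC either way, and between 7 and 8 promoters in HEK293T. All 9 mESC promoters were kept, but that was fixed in advance, since a call with 1 library left is the looser rule. Read depth is not given, so its effect on these counts was not measured.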
